A study of Triticum aestivum with 12 samples.

Results

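Dehydrins and other late embryogenesis abundant (LEA) proteins were followed in wheat seedling roots through 10 probe sets of 5 genes, out of 61179 probe sets measured. The members were taken by a list of probe set identifiers. Rab15 (LOC543293) was measured by 3 probe sets, Ta.2704.1.S1_at, Ta.2704.1.S1_x_at and TaAffx.46097.2.S1_at, and COR410 by 1, Ta.16419.1.S1_at. PMA2005 (LOC543476) was measured by 1, Ta.23797.1.S1_x_at. EMH2 (LOC543480) was measured by 3, which share the name Ta.25025.1.S1 with the suffixes s_at, x_at and at, and EM (LOC543497) by 2, Ta.2798.1.S1_x_at and Ta.2798.1.S1_s_at. Gene names follow the platform annotation, which covers 771 genes on the array, and all 5 were also found in RefSeq's wheat gene table. The probe sets of a gene are told apart by their suffix: at is the plain form, s_at marks probes shared by several transcripts and x_at marks probes that may also bind other sequences. Levels are log2 values computed by RMA, a method that corrects background, normalizes between arrays and summarizes the probes of a probe set.

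The roots came from 18-day-old seedlings grown in sand. Pavon-TL, Null Control and Pavon76 were each kept under water stress, with water given every second day, or under well water, with water given daily, and each of the 6 groups had 2 arrays. Pavon76 is a wheat cultivar. Pavon-TL is, by general knowledge rather than the labels, derived from it and carries a chromosome segment translocated from a wild wheat relative. The labels name Null Control without describing it. Nor do they give the number of plants behind an array, or separate plants for the 2 arrays in each group, so every p-value below measures the spread between these arrays, which may be technical.

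LEA proteins are small, very hydrophilic proteins that accumulate in maturing embryos and in vegetative tissues that lose water, and many of their genes are switched on by the hormone abscisic acid. Dehydrins are one family of them, defined by a lysine-rich repeat that can bind membranes and other proteins. Em proteins form another family, first known from the wheat embryo, where abscisic acid controls their transcripts.

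The arrays were alike in scale, with medians from 5.89 to 5.93. Arrays of different groups with the same replicate number correlated across probe sets at 0.991 to 0.996, while the 2 arrays within a group correlated at 0.980 to 0.987, so the number marked a larger difference than the group did. Of the root markers, 3 probe sets of the deoxymugineic acid synthase DMAS1, an enzyme of iron uptake in grass roots, had mean log2 values of 8.70 to 10.94 in the stressed arrays and 8.68 to 11.68 in the well-watered arrays. The other root gene symbols searched for, NAS and IDS, matched no annotated probe set. The log2 of their summed level was 10.3 to 12.7 in the stressed and 10.3 to 13.4 in the well-watered arrays. For the 30 probe sets of the leaf photosynthesis list, of rbcl and PsbP, the log2 of the summed level was 13.0 to 13.4 in the stressed and 12.6 to 13.3 in the well-watered arrays. That sum is carried by a few of them: a pair of rbcl probe sets, of the large subunit of the carbon-fixing enzyme Rubisco, averaged 11.94 and 11.91 over all arrays, while the mean over the list was 4.59 to 4.68 in the stressed and 4.56 to 4.63 in the well-watered arrays. Signal on rbcl probe sets was therefore not absent from these samples, though both of that pair are x_at probe sets. The plain at probe sets of rbcl had averages from 2.73 to 8.15. The PsbP probe sets averaged 5.49 and 4.24, below the median of all values (5.91). The part of leaf list transcripts in the members' values was not tested. For the 18 probe sets of the grain storage list, the log2 of the summed level was 10.7 to 11.9 in the stressed and 11 to 12 in the well-watered arrays. Most of that sum comes from 1 probe set, of GLU1A, which averaged 11.15 over all arrays. It was matched only by the start of its symbol, and whether it is a grain storage gene was not checked. The mean over the list was 4.75 to 4.95 in the stressed and 4.82 to 4.91 in the well-watered arrays. In bulk roots, fewer cells that express a gene and less RNA per cell cannot be told apart.

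The dehydrin Rab15, known for its response to abscisic acid, read above the median of all values (5.91) on every array of its at and x_at probe sets. Its at probe set read 8.44 and 8.52 in stressed Pavon-TL roots, against 8.15 and 8.70 in well-watered Pavon-TL roots. It read 8.47 and 8.57 in stressed Null Control roots, against 8.16 and 8.69 in well-watered ones. It read 8.78 and 9.02 in stressed Pavon76 roots, against 8.28 and 8.47 in well-watered ones. In Pavon76 the stressed arrays thus lay above the well-watered ones, as they did for 15.9% of all probe sets. Stressed and well-watered arrays overlapped in Pavon-TL and in Null Control. In the order of the 6 group means, from 8.37 in well-watered Pavon76 to 8.90 in stressed Pavon76, 4 of 5 neighbouring pairs of groups overlapped.

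The x_at probe set of the same Rab15 transcript followed it with a Pearson correlation of 0.87 over the 12 arrays, and of 0.83 after the mean of each replicate number was removed. It read 8.57 and 8.52 in stressed Pavon-TL roots, against 7.98 and 8.41 in well-watered ones. The Null Control values were 8.32 and 8.58 under stress, against 8.05 and 8.63 under well water. The Pavon76 values were 8.72 and 8.85 under stress, against 8.44 and 8.46 under well water. On this probe set the stressed arrays lay above the well-watered ones in Pavon-TL as well as in Pavon76. Over all probe sets, 11.2% did so in Pavon-TL and 15.9% in Pavon76.

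The third probe set annotated to Rab15 carries another sequence cluster number and had low values. It read 4.53 and 4.75 in stressed against 4.0 and 4.87 in well-watered Pavon-TL roots. In Null Control it read 4.59 and 5.06 under stress against 4.34 and 4.68 under well water. In Pavon76 it read 4.55 and 4.58 under stress against 5.09 and 4.79 under well water. Its Pavon76 arrays were ordered in the opposite way to those of the other Rab15 probe sets, and it correlated with them at 0.30 and 0.51 over the 12 arrays. All 12 of its values lay below 5.91, the median of all values on the arrays.

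COR410, an acidic dehydrin known from cold-hardened wheat, where the protein gathers near the plasma membrane, was low in every group. It read 4.74 and 4.61 in stressed Pavon-TL roots, against 4.58 and 4.30 in well-watered ones. Its values were 4.67 and 4.51 under stress in Null Control, against 4.55 and 4.64 under well water, and 4.75 and 4.65 under stress in Pavon76, against 4.78 and 4.55 under well water. The stressed arrays stood above the well-watered ones in Pavon-TL, as for 11.2% of all probe sets, and overlapped with them in the other genotypes. The whole range over the 12 arrays was 0.47 on the log2 scale, and all 5 neighbouring pairs of groups overlapped.

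PMA2005, a LEA gene that abscisic acid induces in wheat seedlings, varied most. Its x_at probe set read 5.55 and 5.78 in stressed Pavon-TL roots, against 4.94 and 5.80 in well-watered ones. It read 5.30 and 5.78 in stressed Null Control roots, against 4.47 and 5.58 in well-watered ones. It read 5.17 and 4.83 in stressed Pavon76 roots, against 6.12 and 5.47 in well-watered ones. Well-watered Pavon76 held the highest array and the highest group mean (5.80), and stressed Pavon76 the lowest group mean (5.0). The range over the 12 arrays was 1.65, the widest of the 10 probe sets, and the pooled SD within groups was 0.48, also the largest. All 5 neighbouring pairs of groups overlapped.

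Of the Em genes, EMH2 gave its highest values on the s_at probe set. It read 7.30 and 6.89 in stressed Pavon-TL roots, against 7.28 and 7.15 in well-watered ones. It read 6.95 and 6.94 in stressed Null Control roots, against 7.29 and 7.29 in well-watered ones. It read 6.95 and 7.24 in stressed Pavon76 roots, against 7.05 and 7.06 in well-watered ones. Null Control was thus the one genotype in which the groups did not overlap, with the stressed arrays lower, as for 15.8% of all probe sets. The pooled SD within groups was 0.15.

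The other EMH2 probe sets did not share that pattern. The x_at probe set read 5.31 and 5.07 under stress and 5.62 and 4.92 under well water in Pavon-TL, and 5.38 and 5.31 under stress and 5.53 and 5.32 under well water in Null Control. In Pavon76 it read 5.63 and 5.40 under stress, against 5.21 and 5.09 under well water. The at probe set read 4.60 and 4.10 under stress and 4.50 and 4.19 under well water in Pavon-TL, and 4.36 and 4.59 under stress and 4.50 and 4.39 under well water in Null Control. In Pavon76 it read 4.67 and 4.68 under stress, against 4.04 and 4.52 under well water. These probe sets, like 15.9% of all probe sets, had their stressed arrays above the well-watered ones in Pavon76, and they overlapped elsewhere. They correlated with each other at 0.62 over the 12 arrays, and with the s_at probe set at 0.24 and 0.28.

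EM, the other Em gene, had the narrowest range of the members on one of its probe sets. Its x_at probe set read between 5.81 and 5.98 on all 12 arrays, with group means from 5.86 in stressed Null Control to 5.96 in well-watered Pavon-TL and a pooled SD within groups of 0.05. The s_at probe set read between 2.58 and 3.05, so that on all 12 arrays it lay under 4.34, the lower quartile of the arrays, and it was not shown to lie above background. It was lower under stress in Pavon-TL, at 2.58 and 2.73 against 3.05 and 2.79, and in Pavon76, at 2.73 and 2.79 against 2.86 and 2.93. In Null Control it was higher under stress, at 2.77 and 2.81 against 2.75 and 2.73. Arrays lay apart in these directions for 13.5% (Pavon-TL), 10.9% (Pavon76) and 13.2% (Null Control) of all probe sets. The values of the EM probe sets correlated at -0.06, so they did not describe a shared pattern.

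**Figure D1:**
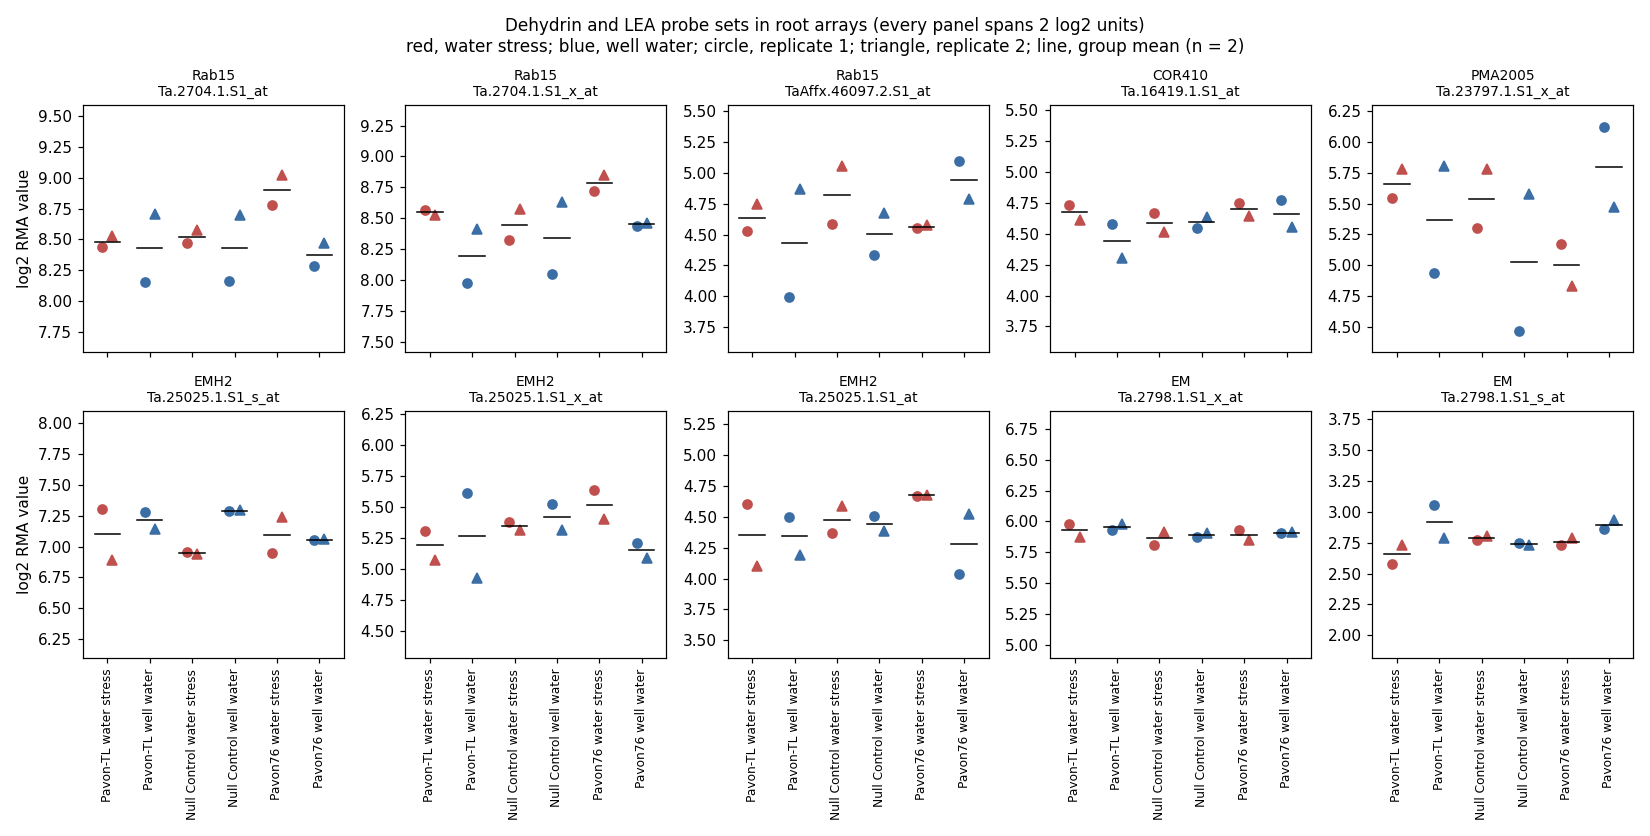
Log2 RMA values (y axis) of the 10 dehydrin and LEA probe sets in the 6 groups (x axis), with 1 point per array, red for water stress and blue for well water, circles for replicate 1 and triangles for replicate 2, and a line at the mean of the 2 arrays. Every panel spans the same height of 2 log2 units: PMA2005 scatters most, with arrays from 4.47 to 6.12, and the x_at probe set of EM least, from 5.81 to 5.98.

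The question of the water comparison is whether these transcripts differ between roots watered every second day and roots watered daily. None of the 10 probe sets passed a limma adjusted p of 0.05 over all probe sets in Pavon-TL, in Null Control, in Pavon76 or averaged over the 3 genotypes, and 0% of all probe sets passed in each of these comparisons. The smallest unadjusted limma p among the members was 0.0565 in the average, for the x_at probe set of Rab15, with 0 of 10 members under 0.05 against 4.28% of all probe sets. Averaged over the genotypes, the differences of 7 members were positive and those of 3 negative (median 0.06), while 49.5% of all probe sets were positive and their median was 0.00. No member had all 6 stressed arrays above or all below the 6 well-watered ones, against 0.203% of all probe sets above and 0.145% below.

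Rab15 differed by 0.22 ± 0.13 (SE) on its at probe set, which averaged 8.63 ± 0.22 in stressed and 8.41 ± 0.25 in well-watered roots (SD, n = 6 each), with a limma adjusted p of 1.00. Its x_at probe set differed by 0.26 ± 0.12 (SE), at 8.59 ± 0.18 in stressed and 8.33 ± 0.26 in well-watered roots (SD, n = 6 each), also with a limma adjusted p of 1.00. The third Rab15 probe set differed by 0.05 ± 0.16 (SE). COR410 differed by 0.09 ± 0.08 (SE) and PMA2005 by 0.00 ± 0.24 (SE). The s_at, x_at and at probe sets of EMH2 differed by -0.14 ± 0.09, 0.07 ± 0.12 and 0.15 ± 0.12 (SE), and the x_at and s_at probe sets of EM by -0.03 ± 0.05 and -0.12 ± 0.07 (SE). The 95% intervals of all 10 differences lay within a 2-fold change in either direction, the widest running from -0.54 to 0.55 for PMA2005.

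With the replicate number as a block, again 0 of the 10 passed, against 0.00817% of all probe sets. Of Rab15, the x_at probe set then had an unadjusted p of 0.0124 and the at probe set of 0.0185, with limma adjusted p-values of 0.376 and 0.411. An unadjusted p under 0.05 was reached by 2 of 10 members, both of them Rab15 probe sets of one transcript, and by 10.1% of all probe sets.

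**Figure D2:**
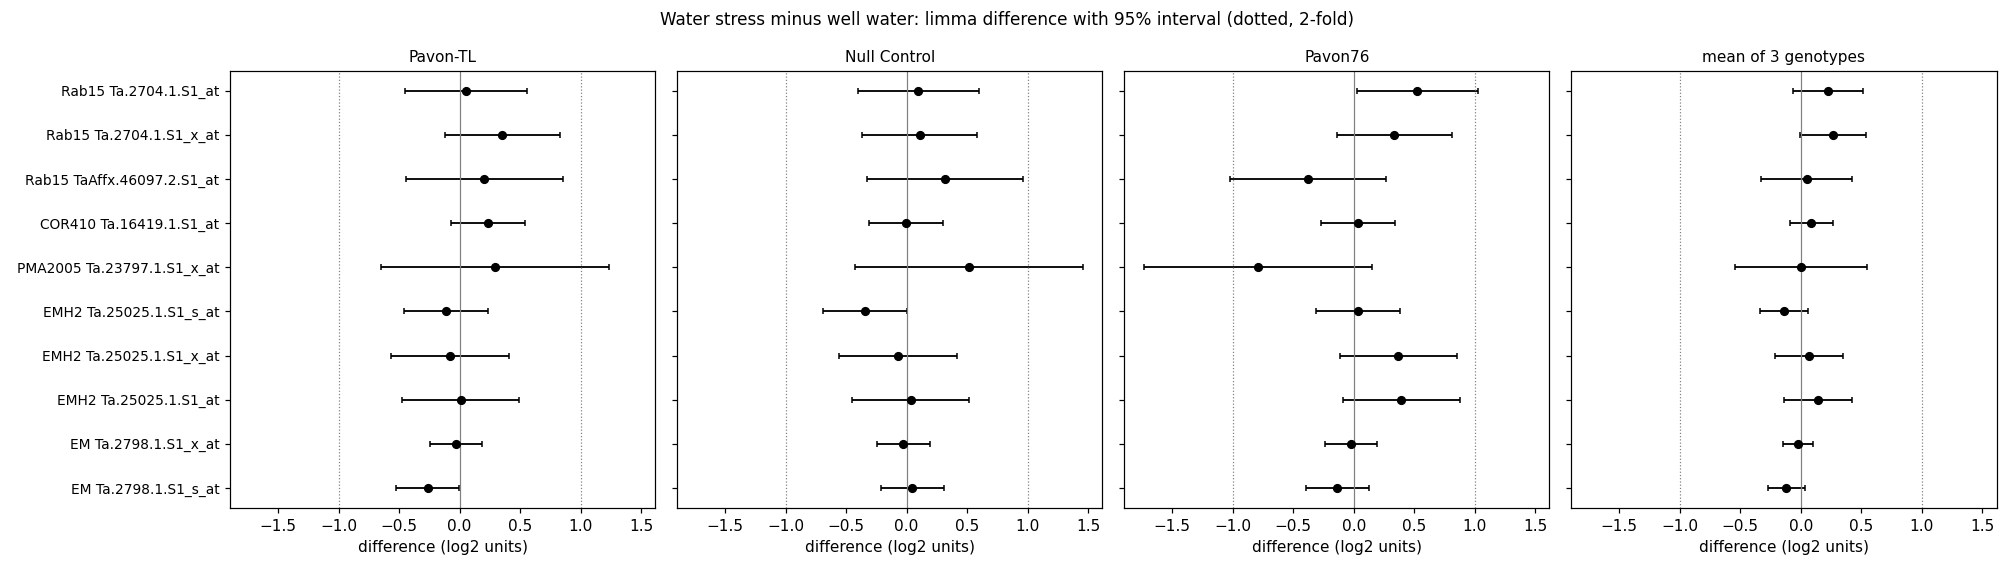
Water stress minus well water in log2 units (x axis) for each of the 10 probe sets (y axis), fitted with limma in Pavon-TL, Null Control, Pavon76 and as the mean of the 3 genotypes, with 95% intervals as bars and dotted lines at a 2-fold change. In the mean every interval stays inside the dotted lines, and the PMA2005 interval crosses one of them in each genotype. In Pavon76 the intervals of the at probe set and of the third probe set of Rab15 cross one as well. The fit is the one without the replicate block.

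Within genotypes the differences were spread around 0. In Pavon-TL, 6 members were positive and 4 negative, with a median of 0.03, against 47.6% positive and a median of -0.01 over all probe sets. The largest was 0.35 ± 0.21 (SE) for the x_at probe set of Rab15, and COR410 differed by 0.23 ± 0.13 (SE). Stressed arrays lay entirely above the well-watered ones for 2 of 10 members, against 11.2% of all probe sets, and entirely below for 1, against 13.5%. That last one was the dim EM probe set, at -0.26 ± 0.11 (SE) with an unadjusted limma p of 0.0483 and an adjusted p of 1.00, where 2.5% of all probe sets had an unadjusted p under 0.05. With the block, 2 of 10 members had one, against 5.99%.

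In Null Control, 6 members were positive and 4 negative, with a median of 0.04, against 48.4% positive and a median of -0.01 over all probe sets. EMH2 differed by -0.34 ± 0.15 (SE) on its s_at probe set, with an unadjusted limma p of 0.0504 and an adjusted p of 1.00. PMA2005 differed by 0.52 ± 0.41 (SE) and the third Rab15 probe set by 0.32 ± 0.28 (SE). Arrays did not overlap for 1 of 10 members in each direction, against 13.2% of all probe sets higher and 15.8% lower under stress. An unadjusted p under 0.05 was reached by 0 of 10 members and by 3.42% of all probe sets. With the block, 0 of 10 passed the adjusted threshold, against 0.00163% of all probe sets, and 1 of 10 had an unadjusted p under 0.05, against 8.38%.

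In Pavon76 the members split more widely, again with 6 positive and 4 negative differences and a median of 0.04, against 54.0% positive and a median of 0.01 over all probe sets. Rab15 differed by 0.52 ± 0.22 (SE) on its at probe set, with a 95% interval from 0.02 to 1.02. EMH2 differed by 0.37 ± 0.21 and 0.39 ± 0.21 (SE) on its x_at and at probe sets, and by 0.04 ± 0.15 (SE) on its s_at probe set. PMA2005 differed by -0.79 ± 0.41 (SE), with a 95% interval from -1.74 to 0.15, and the third Rab15 probe set by -0.38 ± 0.28 (SE). The limma adjusted p was 1.00 for each of them.

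Stressed Pavon76 arrays lay entirely above the well-watered ones for 4 of 10 members, against 15.9% of all probe sets, and entirely below for 3, against 10.9%. The 4 come from only 2 genes, Rab15 and EMH2, so they are not separate observations. An unadjusted limma p under 0.05 was reached by 1 of 10 members, the at probe set of Rab15 at 0.0420, and by 2.84% of all probe sets. With the block its unadjusted p was 0.00335 and its adjusted p 0.572, and 3 of 10 members were under 0.05, against 6.57% of all probe sets. PMA2005 had an unadjusted p of 0.0425 with the block and an adjusted p of 0.741.

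The replicate number moved with some of these levels. A comparison of the numbers, chosen after the data were seen, gave 2 of 10 members past a blocked limma adjusted p of 0.05, against 27.8% of all probe sets, and 3 of 10 with an unadjusted p under 0.05, against 36.9%. The at probe set of Rab15 was higher on the array numbered 2 in 6 of 6 groups, by 0.28 ± 0.08 (SE, limma adjusted p = 0.0221), which 15% of all probe sets also were. The x_at probe set of EMH2 was lower on the array numbered 2 in 6 of 6 groups, by -0.26 ± 0.08 (SE, limma adjusted p = 0.0405), against 13% of all probe sets. The root marker DMAS1 averaged 8.68 to 9.42 on the arrays numbered 2 and 10.18 to 11.68 on those numbered 1, without overlap. What the number stands for is not in the labels. Each group holds an array of either number, so the block changes the SE and p-value of a water or genotype difference, not the difference. The part of the number in the members' differences was not tested.

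Taken within a genotype and a replicate number, the water difference is free of a shift common to all arrays of that number. Stress was above well water in 4 of 6 pairs for the at probe set of Rab15, from -0.18 to 0.55, and in 5 of 6 for its x_at probe set, from -0.06 to 0.59. On the at probe set the Pavon76 pairs gave 0.50 and 0.55, while Pavon-TL gave 0.28 and -0.18 and Null Control 0.31 and -0.12. The third Rab15 probe set was higher in 3 of 6, from -0.54 to 0.53, with both Pavon76 pairs negative. COR410 was higher in 4 of 6 pairs, from -0.12 to 0.31. PMA2005 was higher in 3 of 6, from -0.95 to 0.83, with both Pavon76 pairs negative. The s_at probe set of EMH2 was higher in 2 of 6, from -0.35 to 0.18. Its x_at probe set was higher in 3, from -0.31 to 0.43, and its at probe set in 4, from -0.14 to 0.63. EM was higher in 3 of 6 on its x_at probe set, from -0.10 to 0.05. On its s_at probe set it was higher in 2, from -0.47 to 0.07. The share of all probe sets with such counts was not computed.

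**Figure D3:**
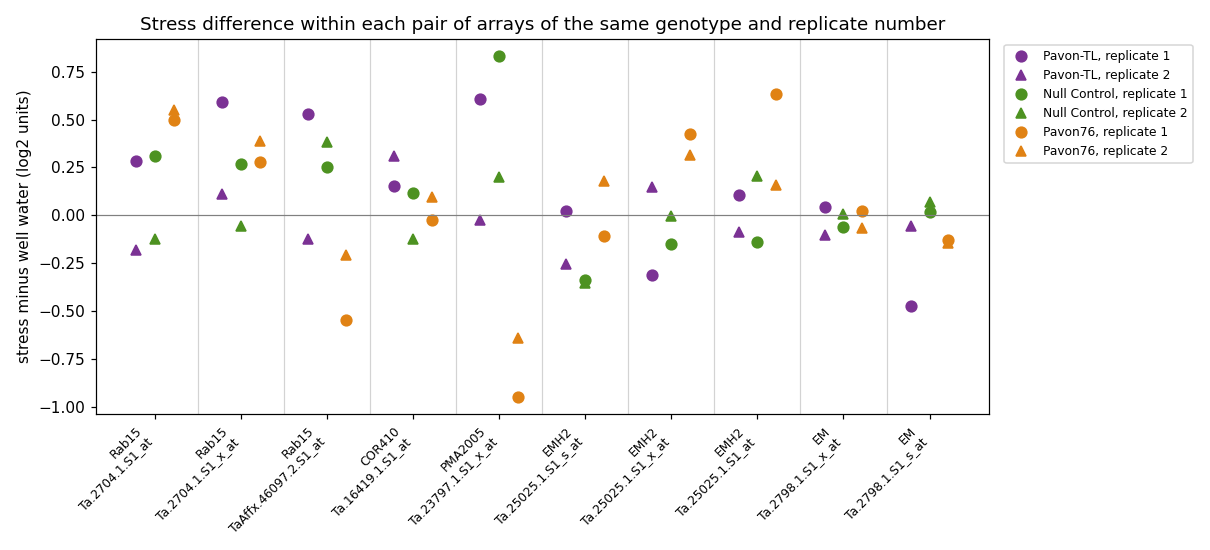
Water stress minus well water in log2 units (y axis) within each pair of arrays of the same genotype and replicate number, for the 10 probe sets (x axis), with colours for the 3 genotypes, circles for replicate 1 and triangles for replicate 2. For PMA2005 the Pavon76 pairs sit at -0.95 and -0.64 and the Null Control pairs at 0.83 and 0.20, while the pairs of the x_at probe set of EM stay between -0.10 and 0.05.

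Whether the water difference itself differed between genotypes was tested as an interaction, and 0 of 10 members passed in any of the 3 interactions, with 0% of all probe sets passing in each. The largest was that of PMA2005, where the stress difference was 1.31 ± 0.58 (SE) greater in Null Control than in Pavon76, with a 95% interval from -0.03 to 2.64. Its unadjusted limma p was 0.0536 and its adjusted p 1.00. With the block the interval ran from 0.23 to 2.38, with an unadjusted p of 0.0217 and an adjusted p of 0.810. The stress difference of PMA2005 in Pavon-TL was 1.08 ± 0.58 (SE) greater than in Pavon76, and -0.22 ± 0.58 (SE) relative to Null Control. For the at probe set of Rab15 it differed by -0.47 ± 0.31 (SE) between Pavon-TL and Pavon76 and by -0.43 ± 0.31 (SE) between Null Control and Pavon76. With the block, the Rab15 value against Pavon76 had an unadjusted p of 0.0363 in Pavon-TL and an adjusted p of 0.868. An unadjusted p under 0.05 was reached by 0 of 10 members in each interaction without the block, against 2.37% of all probe sets (Pavon-TL and Pavon76), 1.76% (Pavon-TL and Null Control) and 2.69% (Null Control and Pavon76). With the block it was reached by 2, 0 and 2 members in that order, against 5.66%, 4.24% and 6.14%. All 3 interactions draw on shared arrays, so their values are not independent of each other.

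The genotype comparisons ask whether the level of these transcripts differs in Pavon-TL, averaged over both water conditions. None of the 10 probe sets passed between Pavon-TL and Pavon76, where 0.168% of all probe sets did, or between Pavon-TL and Null Control, where 0.152% did. None passed between Null Control and Pavon76 either, against 0.0049% of all probe sets. With the block 0 of 10 passed in each, against 0.499%, 0.575% and 0.0147% in the same order. An unadjusted p under 0.05 was reached by 0 members without the block, against 4.07%, 3.11% and 2.04%, and by 1, 0 and 0 with it, against 9.83%, 7.06% and 5.16%. No member had array values of one genotype wholly apart from those of another, against 1.61% of all probe sets higher and 1.45% lower in Pavon-TL than in Pavon76, 1.41% and 1.05% against Null Control, and 1.09% and 0.66% for Null Control against Pavon76. These comparisons share arrays as well.

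Between Pavon-TL and Pavon76, 3 members were positive and 7 negative, with a median of -0.11, against 51.0% positive and a median of 0.00 over all probe sets. All 3 Rab15 probe sets were negative, at -0.18 ± 0.15, -0.25 ± 0.15 and -0.22 ± 0.20 (SE), but not all under the same water condition. The group mean of the at probe set was lower in Pavon-TL under stress (8.48 against 8.90), not under well water (8.43 against 8.37). That of the third was lower under well water (4.43 against 4.94), not under stress (4.64 against 4.56). The x_at probe set was lower under both. It averaged 8.37 ± 0.27 in Pavon-TL and 8.62 ± 0.20 in Pavon76 (SD, n = 4 each), with an unadjusted limma p of 0.129 and, with the block, of 0.0434 (adjusted p = 0.490). COR410 differed by -0.12 ± 0.09 (SE) and PMA2005 by 0.11 ± 0.29 (SE). EMH2 differed by 0.08 ± 0.11 (SE) on its s_at probe set. The sign was the opposite on its x_at and at probe sets, at -0.11 ± 0.15 and -0.13 ± 0.15 (SE). EM differed by 0.05 ± 0.07 (SE) on its x_at and by -0.04 ± 0.08 (SE) on its s_at probe set.

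Against Null Control the Rab15 probe sets of the first transcript were at -0.02 ± 0.15 (SE) each, and the third at -0.13 ± 0.20 (SE). PMA2005 had the largest difference, 0.23 ± 0.29 (SE), and COR410 differed by -0.03 ± 0.09 (SE). The s_at, x_at and at probe sets of EMH2 were at 0.04 ± 0.11, -0.16 ± 0.15 and -0.11 ± 0.15 (SE). The x_at and s_at probe sets of EM were at 0.07 ± 0.07 and 0.02 ± 0.08 (SE). In all, 4 members were positive and 6 negative, with a median of -0.02, against 48.5% positive and a median of 0.00 over all probe sets. Between Null Control and Pavon76, Rab15 differed by -0.16 ± 0.15 (SE) on its at and by -0.22 ± 0.15 (SE) on its x_at probe set, and 2 members were positive and 8 negative, with a median of -0.07, against 51.4% positive and a median of 0.00 over all probe sets. Every 95% interval in the 3 genotype comparisons lay within a 2-fold change, with a lowest bound of -0.79 and a highest of 0.90, both of PMA2005.

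**Figure D4:**
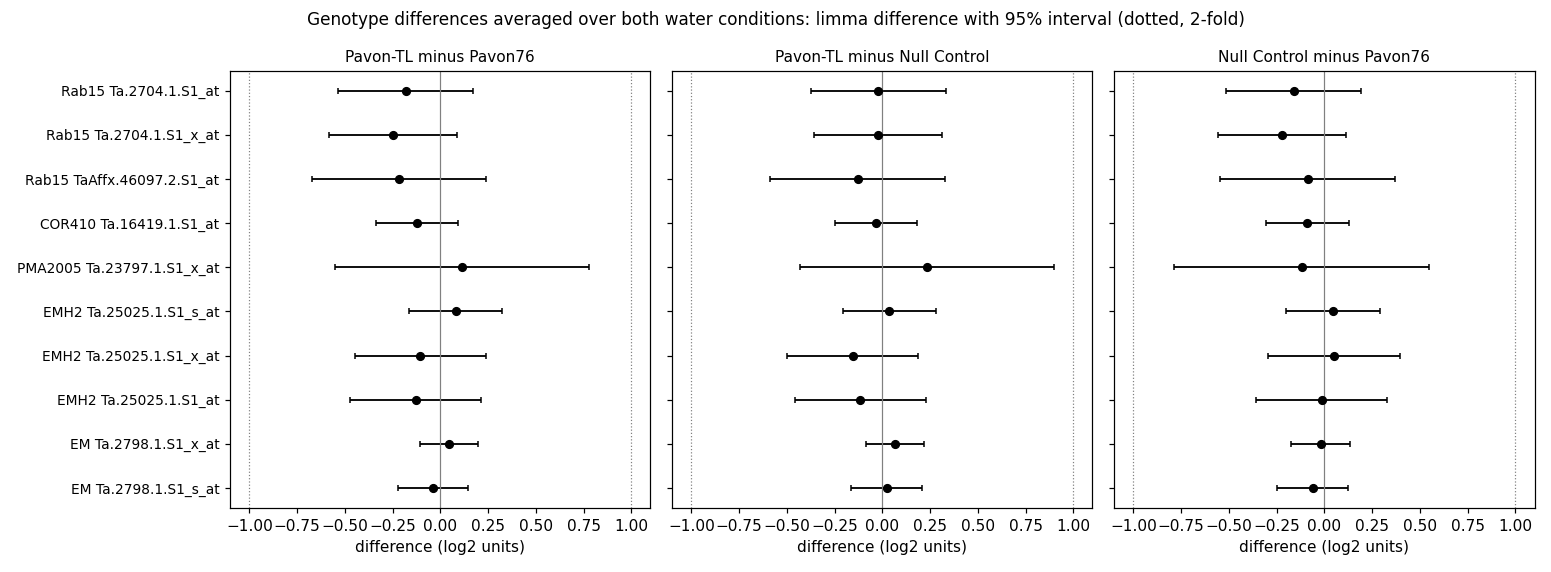
Genotype differences in log2 units (x axis) for the 10 probe sets (y axis), averaged over both water conditions and fitted with limma, with 95% intervals as bars and dotted lines at a 2-fold change. The 3 Rab15 probe sets lie left of 0 in Pavon-TL minus Pavon76, at -0.18, -0.25 and -0.22. They also lie left of 0 in Null Control minus Pavon76, at -0.16, -0.22 and -0.09. Every interval stays between the dotted lines. The fit is the one without the replicate block.

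A search by symbol and synonym found few other annotated genes of the response to drying. Many annotated genes carry only a LOC number without a synonym, and such genes could not be found this way. The symbols searched for among further LEA, dehydrin and cold-regulated genes, abscisic acid signalling genes and factors that bind the Em promoter matched 0 annotated probe sets. The lists of osmoprotectants, heat shock and oxidative stress held 10 probe sets of 5 genes, of which 0 passed in any of the 10 comparisons, with or without the block. Averaged over genotypes, 3 were positive and 7 negative under water stress, with a median of -0.04 and a range from -0.18 to 0.07. PEAMT1, a methyltransferase on the way to choline and glycine betaine, differed by -0.12, the small heat shock protein gene hsp16.9A by -0.12 and the catalase CAT1 by -0.18 and -0.04 on its 2 probe sets. The remaining genes of these lists went both ways, with Prx1 at 0.07, 0.02, -0.03 and -0.15 and LTP3 at 0.02 and -0.03.

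The annotated genes whose values ran most like the members were found by Pearson correlation over the 12 arrays, after the mean of each replicate number was removed, among 766 other genes. For the at probe set of Rab15 these were LOC542782, LOC542858 and LOC542980, at 0.82, 0.81 and 0.80, which without that removal were 0.36, -0.37 and 0.87. For COR410 they were LOC543424 at 0.96, LOC542916 at 0.86 and LOC543089 at 0.80. For PMA2005 they were LOC543084 at 0.82, the thionin gene LOC543413 at 0.79 and LOC543086 at 0.78. For the s_at probe set of EMH2 they were LOC543264 at 0.82, LOC543489 at 0.82 and LOC542952 at 0.80, and for the x_at probe set of EM the highest was the fructose bisphosphatase gene FBP at 0.76, followed by LOC100125748 at 0.74 and LOC778394 at 0.73. These are the highest of many values over 12 arrays that share their groups, and are given as a description.

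Among the members themselves, the 7 pairs of probe sets of one gene correlated between -0.06 and 0.87, with a median of 0.30, and the 38 pairs of different genes between -0.71 and 0.80, with a median of -0.08. The highest value between genes was that of PMA2005 with the third Rab15 probe set. The lowest was that of PMA2005 with the x_at probe set of EMH2.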

How the data were processed

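Roots of 12 samples were hybridised to Affymetrix wheat arrays after biotin labelling, 1 array per sample. The authors made the deposited log2 values with RMA, per the submitters' processing notes. The RMA version is not given in the sources used here. The table held 61290 probe sets, and 111 of them, Affymetrix controls, did not enter the fit. No detection calls were used and no filter on dim values was applied. The number of arrays limits the precision.

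The 61179 values per array entered limma 3.58.1 (R 4.3.3), in a model of the 6 group means with 10 contrasts and empirical Bayes moderation (6 residual degrees of freedom). Tests were two-sided with Benjamini-Hochberg adjustment over all probe sets at 0.05. The fit was run on simulated data with known differences, as a check of the code only. Whether differences as small as those of the members could be detected was not tested. All 10 members are described. Per gene, the 3 annotated genes with the highest correlation and all members of 8 symbol lists were added by rule. The members and lists were chosen with earlier results of these data known.

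Deviations of same-numbered arrays correlated between 0.606 and 0.795 in 15 of 15 pairs of groups, so the replicate numbers pair the arrays. The meaning of a number is not in the labels. Unless the block is named, every SE, interval and p-value comes from the fit without it, which ignores this pairing. For the water difference in Pavon76, the block changed the SE of Rab15 (at) from 0.22 to 0.14. That of EM (x_at) went from 0.09 to 0.10. Alternatives were this replicate block, filters on dim probe sets, other scalings, other moderation, fewer groups and leaving out each array. Platform annotation named 1273 probe sets. Sequences of the members were not used here.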

Additional observations from a re-analysis of the deposited data

Results flagged for a closer look

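For 4 of the 10 probe sets, both pairs of arrays lay on one side of 0 for the water difference in Null Control and on the other in Pavon76, which 12.6% of all probe sets did. The interaction (Null Control minus Pavon76) was 1.31 for PMA2005, 0.69 for the third probe set of Rab15, -0.44 for the x_at probe set of EMH2 and 0.18 for the s_at probe set of EM, and none passed in limma over all probe sets (unadjusted p of 0.0536, 0.120, 0.176 and 0.293). For PMA2005, the pairs gave 0.83 and 0.20 in Null Control, against -0.95 and -0.64 in Pavon76. The x_at probe set of EMH2 is counted with Null Control pairs of -0.15 and -0.002, the latter barely below 0, against 0.43 and 0.31 in Pavon76. Between Pavon-TL and Null Control, the s_at probe set of EM did the same, with an interaction of -0.31 and an unadjusted limma p of 0.0903 (adjusted p = 1.00), where 10.4% of all probe sets did. All values of that probe set lie below the first quartile of the arrays. Between Pavon-TL and Pavon76, no member had its pairs on opposite sides of 0 in this way, against 13% of all probe sets.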

How the results depend on the processing

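No member passed the threshold in any of the 10 comparisons under any of the 31 alternatives, with or without the replicate block. The lowest limma adjusted p was 0.286, for the x_at probe set of Rab15 in the water comparison averaged over genotypes. The fit to only the groups compared does not apply to the averaged water comparison, which uses all groups. A filter at the median of all values kept 3 of the 10 members and a filter at the first quartile kept 9. Of the 100 member differences, 45 kept their sign under all alternatives run and 55 turned it under at least 1. Many alternatives cannot change a difference: the block alone, the filters, the moderation, fewer groups, and leaving out an array of a group not compared. A sign kept under these was fixed in advance. Of the 218 sign turns, 209 came from leaving out an array, with or without the block, and 9 from another scaling. The Rab15 difference in Pavon76 (at probe set) ranged from 0.40 to 0.64, that of PMA2005 from -1.35 to -0.24, and the PMA2005 interaction of Null Control and Pavon76 from 0.75 to 1.86. The PMA2005 difference averaged over genotypes turned sign under 13 of 29 alternatives, from -0.18 to 0.19. The counts over all probe sets moved with the replicate block. Between Pavon-TL and Pavon76, 305 passed with the block and 103 without it, and the blocked count lay between 168 and 342 when 1 array was dropped. Between Pavon-TL and Null Control these were 352, 93 and 163 to 612, and between Null Control and Pavon76 9, 3 and 6 to 18. In the averaged water comparison they were 5, 0 and 0 to 35, in that of Null Control 1, 0 and 0 to 1, and in those of Pavon76 and of Pavon-TL 0, 0 and 0 to 2. In the interaction of Pavon-TL and Pavon76 they were 0, 0 and 0 to 34, and 0 throughout in the other interactions. Between Null Control and Pavon76, leaving out 1 array without the block gave 3 to 6. The 2 arrays per group limit what could be detected.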

Other observations

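A pair of probe sets shares a cluster number with members but has no gene annotation in the table used. Both were picked with their values known, and a shared number does not show that they belong to the same gene. The one that shares the number of the third Rab15 probe set read 7.58 to 8.22 over the 12 arrays. It averaged 7.98 ± 0.15 under water stress and 7.78 ± 0.14 under well water (SD, n = 6 each), a difference of 0.20 ± 0.10 (SE, limma adjusted p = 1.00, and 0.515 with the block). Its differences in Pavon-TL, Null Control and Pavon76 were 0.18, 0.25 and 0.16. The one that shares the EMH2 number read 5.62 to 6.11 and differed by -0.06 ± 0.08 (SE) on average, by -0.30 in Null Control and by 0.23 in Pavon76. Its interaction of Null Control and Pavon76 was -0.54 ± 0.19 (SE, limma adjusted p = 1.00, and 0.810 with the block).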
